A study of Mus musculus with 10 samples.

Results

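Glycolysis and hypoxia response genes were followed through macrophages sorted from drug-resistant mouse melanomas. The 34 genes were listed by symbol: 3 transporters of glucose and lactate, 16 glycolytic enzymes, 3 regulators of glycolytic flux, 9 targets of hypoxia-inducible factor (Hif) outside glycolysis, the Hif alpha subunit genes Hif1a and Epas1, and the cytokine gene Mif. All 34 were found among the 55359 gene identifiers and passed the filter on low counts, which 14374 genes passed. The cells carried the surface marker F4/80 and came from male mice whose Braf-mutant tumours had rebounded under daily Braf and Mek inhibitors. The control group of 5 libraries was heterozygous for an RFP allele of the chemokine receptor gene Ccr2 (Ccr2RFP/+) and the knockout group of 5 libraries was homozygous for it (Ccr2RFP/RFP), so controls carried the RFP allele too. F4/80 marks macrophages of any origin, so the sort does not separate recruited from resident cells. No source used here gives animal ages or says that each library came from its own animal, and the spread behind each p-value may be technical.

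Glycolysis splits glucose into pyruvate in the cytosol, and lactate dehydrogenase turns pyruvate into lactate, which leaves the cell by a monocarboxylate transporter. In cells with enough oxygen, prolyl hydroxylases of the Egln family mark the Hif alpha proteins for destruction. When oxygen is low the alpha proteins persist, pair with Arnt and switch on genes that hold the core motif ACGTG or GCGTG, among them most glycolytic enzymes and the hydroxylases Egln1 and Egln3 themselves. Inflammatory signals can raise Hif1a activity in macrophages without low oxygen, and much of the control acts on the protein and not on its RNA.

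The Hif core was looked for in promoter windows because the members, described below, moved together between libraries. The windows hold the 250 bases before each annotated start in RefSeq on GRCm38.p6, a build other than that of the counts, and 30 of the 34 members had at least 1. ACGTG or GCGTG on either strand, with overlapping matches counted as 1 place, was present in at least 1 window of 27 of these 30 members (90.0%), against 60% of 10607 tested genes with a window. It was present in 14 of 16 glycolytic enzymes and in 7 of 7 Hif targets with a window. A match is a description of letters and not a binding site. The members were listed as genes of glycolysis and the hypoxia response, so a high share follows in part from the list. It does not show why members moved together between libraries. Capitals mark the matches, written 5′ to 3′ on the strand of the gene, in 6 members that the results turn on. Bnip3 and Adm are Hif targets that spread widely between libraries, Egln3 is a target whose knockout mean lay below the control mean, Ldha and Pgk1 are glycolytic enzymes with the motif, and Tpi1 is an enzyme without it.
Bnip3 (chr7:138909507-138909756, minus strand): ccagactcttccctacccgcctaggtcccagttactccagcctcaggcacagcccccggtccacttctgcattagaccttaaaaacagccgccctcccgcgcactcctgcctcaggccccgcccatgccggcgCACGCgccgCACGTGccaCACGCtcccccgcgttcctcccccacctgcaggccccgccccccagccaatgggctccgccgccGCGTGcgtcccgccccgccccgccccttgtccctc
Adm (chr7:110627407-110627656, plus strand): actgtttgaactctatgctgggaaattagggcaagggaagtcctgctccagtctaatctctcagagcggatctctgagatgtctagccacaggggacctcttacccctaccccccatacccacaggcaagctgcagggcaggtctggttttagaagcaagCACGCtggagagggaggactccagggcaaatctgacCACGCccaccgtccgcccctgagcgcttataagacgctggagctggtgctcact
Egln3 (chr12:54203875-54204124, minus strand): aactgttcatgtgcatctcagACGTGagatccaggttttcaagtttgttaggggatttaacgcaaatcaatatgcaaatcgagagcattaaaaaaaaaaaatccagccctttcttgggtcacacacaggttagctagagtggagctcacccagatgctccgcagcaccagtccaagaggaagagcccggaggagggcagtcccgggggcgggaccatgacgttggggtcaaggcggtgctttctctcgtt
Ldha (chr7:46845554-46845803, plus strand): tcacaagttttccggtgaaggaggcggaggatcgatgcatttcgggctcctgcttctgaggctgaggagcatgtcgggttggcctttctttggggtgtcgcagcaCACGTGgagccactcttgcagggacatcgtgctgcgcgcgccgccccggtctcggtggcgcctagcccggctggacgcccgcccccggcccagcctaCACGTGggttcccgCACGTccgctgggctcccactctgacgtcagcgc
Pgk1 (chrX:106186850-106187099, plus strand): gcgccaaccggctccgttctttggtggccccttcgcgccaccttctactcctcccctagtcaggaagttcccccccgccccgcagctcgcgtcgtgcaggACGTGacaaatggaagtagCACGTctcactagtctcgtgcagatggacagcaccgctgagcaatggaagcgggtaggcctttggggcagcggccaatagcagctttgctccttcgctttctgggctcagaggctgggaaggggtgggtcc
Tpi1 (chr6:124814159-124814408, minus strand): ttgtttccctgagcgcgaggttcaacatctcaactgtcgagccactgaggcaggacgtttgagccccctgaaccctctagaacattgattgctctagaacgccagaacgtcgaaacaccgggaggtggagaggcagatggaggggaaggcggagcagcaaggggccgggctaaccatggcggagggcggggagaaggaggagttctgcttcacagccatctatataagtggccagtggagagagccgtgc
Bnip3 held 4 places, the nearest ending 31 bases before the start. Ldha, shown by the first of its 2 windows, held 3 places, of which 2 read CACGTG, the motif on both strands at once, and Pgk1 held 2. Adm held 2 and Egln3 held 1, whose last base lay 225 bases before the start.

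Libraries held between 34639808 and 43360206 counts in genes. Ccr2 stood at 119 ± 45.9 counts scaled to library size (CPM) in the control group and 4.72 ± 1.41 CPM in knockout libraries (SD, n = 5 each), with no overlap between the groups. Macrophage markers, 12 of 12 of them tested, summed to between 29600 and 36100 CPM in control libraries and between 31400 and 39200 CPM in the knockout. Lyz2 made up 25.2% of this sum. The other 11 summed to between 23000 and 24600 CPM in control libraries and between 20400 and 29000 CPM in the knockout. They stood at 20400 and 25200 CPM in knockout libraries 1 and 2, and the part of this difference in the results was not tested. Of the 12, Cd68 alone passed the threshold, as higher in knockout libraries (edgeR adjusted p = 0.026). The pairs of control libraries 1 with 2 and 3 with 4 were more alike than any other pair (median chi-square per gene 2.79 and 2.66, next 5.15, and 0.455 from sampling noise alone), so 5 control libraries may hold less independent spread than 5 knockout libraries.

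None of the 34 members passed the threshold between genotypes, and the knockout libraries lay on both sides of the controls for most of them. By edgeR's quasi-likelihood test with Benjamini-Hochberg adjustment over all genes, 0 of 34 members had an adjusted p under 0.05, against 1.41% of all genes tested (0.87% higher and 0.543% lower in knockout libraries), and DESeq2 called 0 as well. At an unadjusted p under 0.05 edgeR gave 2 members, Adm and Pdk1, both with the higher mean in knockout libraries, against 15.3% of all genes (8.05% higher and 7.28% lower). DESeq2 gave 3, against 16.9% of all genes. In 0 of 34 members were the libraries of the genotypes free of overlap, against 4.7% of all genes (2.69% higher and 2.02% lower). The log2 fold change, knockout against control, was above 0 for 24 members, against 49.5% of all genes, and its median was 0.20 beside -0.0034 over all genes tested. Among the groups the median was 0.21 for glycolytic enzymes and 0.20 for Hif targets outside glycolysis. These medians moved with knockout libraries 1 and 2. Without library 1 they were 0.36 and 0.30, without library 2 they were 0.11 and 0.066, and without both they were 0.26 and 0.048. Leaving out both thus raised the enzyme median and lowered that of the Hif targets.

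**Figure D1:**
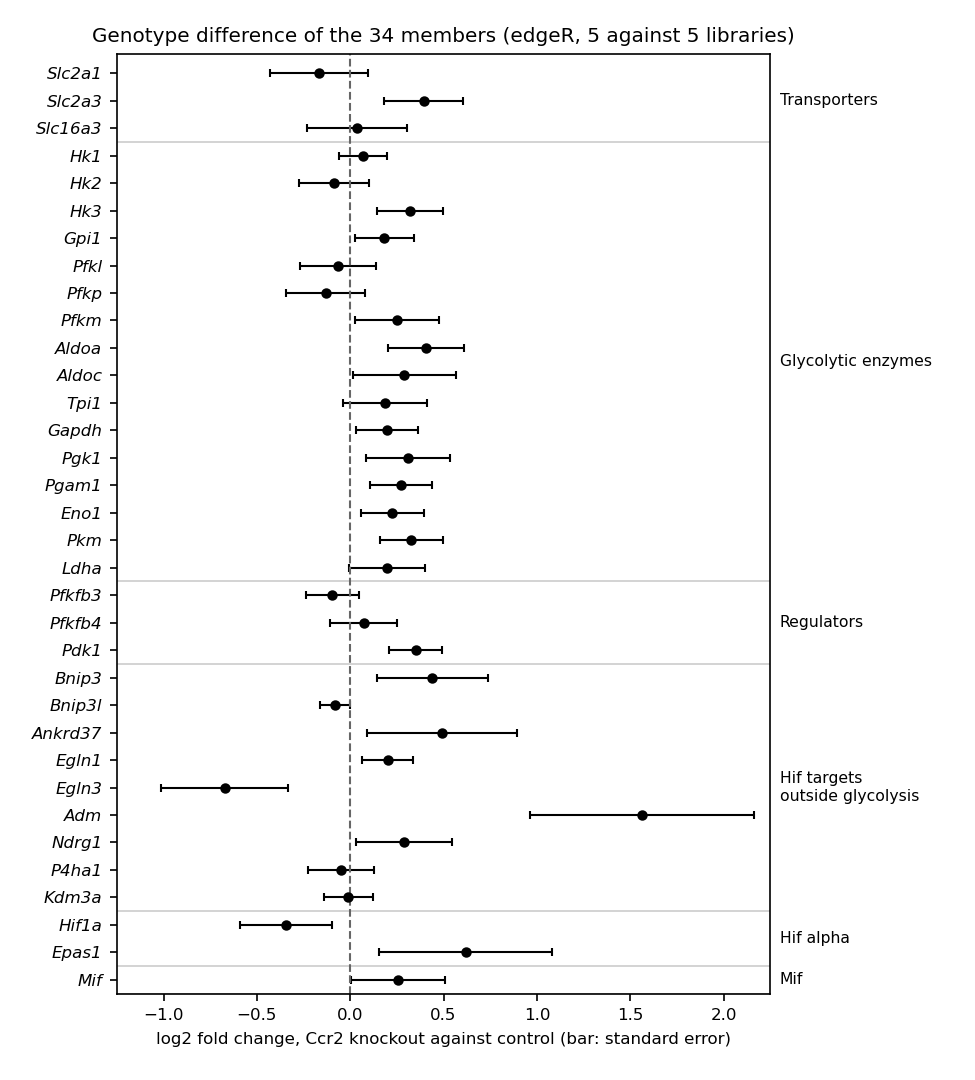
Log2 fold change of each of the 34 members (x axis, knockout against control, edgeR; points with bars of ± 1 standard error), in rows by role. Most points lie between 0 and 0.5, Adm stands farthest to the right at 1.56 and Egln3 farthest to the left at -0.67, and none passed the adjusted threshold.

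Over the members, knockout library 2 minus knockout library 1 had a median of 1.05 on the log2 scale, beside -0.003 over all genes tested. Knockout library 2 held the highest of the 10 values for 27 of 34 members, and knockout library 1 the lowest for 20 of 34. Over all genes tested these shares were 7.11% and 19.1%. Both held together for 18 members (52.9%) and for 1.78% of all genes. The standard deviation of log2 CPM was larger in knockout than in control libraries for 31 of 34 members (91.2%), against 67% of all genes, and more than 2 times as large for 20 (58.8%), against 23.6%. These libraries were singled out after the member values were seen, so the counts are a description of the libraries with no test.

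**Figure D2:**
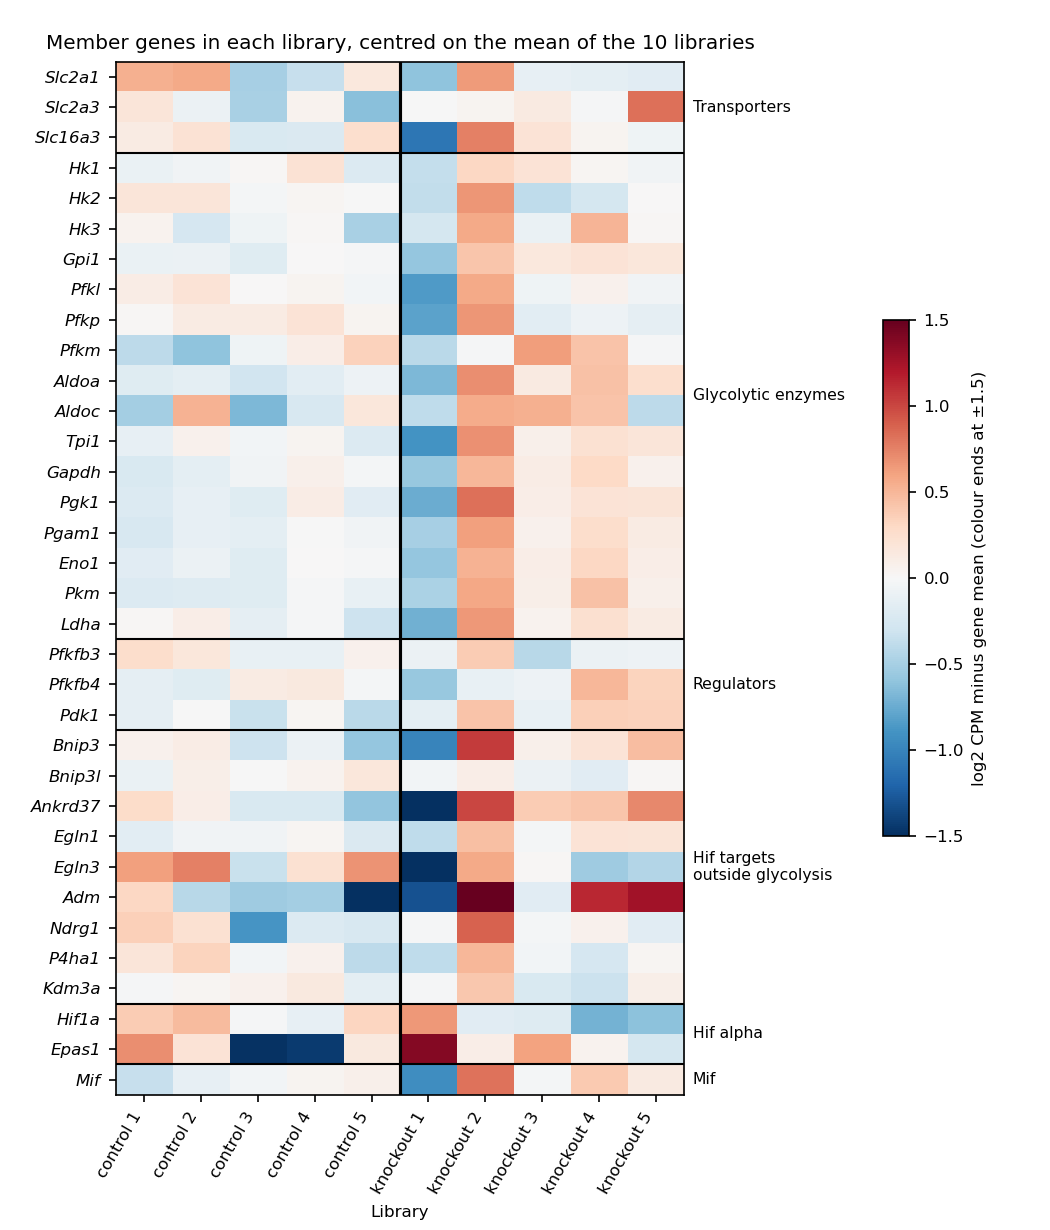
Level of each member (rows, by role) in each library (columns), as log2 CPM minus the mean of the gene over the 10 libraries; red is above and blue below that mean. Knockout library 1 is blue and knockout library 2 red in all but a few rows, while Hif1a and Epas1 are highest in knockout library 1.

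Glycolytic enzymes and Hif targets outside glycolysis held the same order at both ends. As the mean over genes of log2 CPM centred on the 10 libraries, the enzymes stood at -0.13, -0.039, -0.13, 0.026 and -0.073 in control libraries 1 to 5 and at -0.57, 0.55, 0.097, 0.23 and 0.041 in knockout libraries 1 to 5. The Hif targets stood at 0.17, 0.13, -0.26, -0.057 and -0.37 in control and at -0.73, 0.80, -0.011, 0.083 and 0.24 in knockout libraries. The control libraries thus lay within a narrow band for the enzymes and a wider one for the Hif targets. Knockout library 1 lay below every control on both measures, and knockout libraries 2 and 5 lay above every control on both. For the Hif targets, the place of knockout library 5 leaned on Adm, 1 of 9 genes. Adm, centred in the same way, stood at 1.25 there, beside 0.31 and -0.42 in control libraries 1 and 2. Knockout libraries 3 and 4 lay above every control for the enzymes and within the control range for the Hif targets. The enzyme mean minus the Hif target mean was 0.0070 ± 0.24 in control and -0.0070 ± 0.20 in knockout libraries (SD, n = 5 each), a difference of -0.014 that is far within the spread of either group. The sign of that difference turned under several settings and is not read as a direction. The small difference does not show that enzymes and Hif targets shifted alike between genotypes, because Adm weighs heavily in the Hif target mean. Adm had a log2 fold change of 1.56 beside a median of 0.20 over the Hif targets, of which 4 lay below 0.

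**Figure D3:**
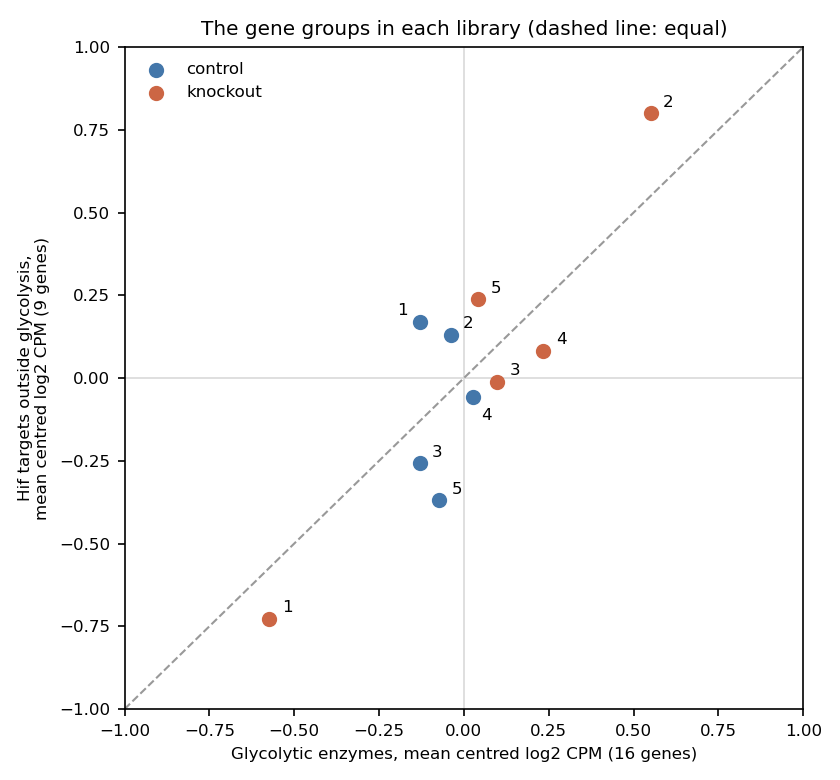
Each point is a library, numbered within its genotype: the mean centred log2 CPM of 16 glycolytic enzymes (x axis) against that of 9 Hif targets outside glycolysis (y axis). Knockout libraries 1 (-0.57 and -0.73) and 2 (0.55 and 0.80) lie at opposite corners with the control libraries between them.

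Glucose enters the cell through the transporters of the Slc2a family, and Slc16a3 exports lactate. Slc2a1, the basal glucose transporter, stood at 261, 267, 128, 142 and 201 CPM in control libraries 1 to 5 and at 119, 281, 166, 164 and 161 CPM in knockout libraries 1 to 5. The groups overlapped, and only knockout library 1 stood below control libraries 3 and 4 (log2 fold change -0.17, SE 0.26, edgeR adjusted p = 0.797). Slc2a3, a transporter of high affinity, ran from 9.77 to 17.1 CPM in control and from 14.8 to 26.6 CPM in knockout libraries, with knockout library 5 highest and the other 4 knockout libraries within the control range (0.39, SE 0.21, adjusted p = 0.398). Slc16a3 stood at 181, 192, 142, 143 and 196 CPM in control and at 77.7, 279, 191, 170 and 158 CPM in knockout libraries. Its group means, 171 ± 26.8 and 175 ± 72.3 CPM, hardly differed, while knockout library 2 held 3.60 times the level of knockout library 1. Per kilobase of exon, Slc2a1 was the more abundant glucose transporter in both genotypes, at 61.3 ± 19.9 and 54.6 ± 18.5 CPM per kb against 3.40 ± 0.794 and 4.47 ± 1.27 CPM per kb for Slc2a3.

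Of the 16 enzymes, 13 had a log2 fold change above 0, and 0 passed the threshold, with edgeR adjusted p from 0.369 to 0.903. Gapdh, Eno1, Pgk1, Ldha and Tpi1 have processed copies in the genome, so their levels are less certain. Aldoa, the aldolase that splits fructose bisphosphate (ENSMUSG00000030695), stood at 1072, 1101, 997, 1088 and 1148 CPM in control libraries and at 760, 1970, 1337, 1649 and 1443 CPM in knockout libraries. Knockout libraries 2 to 5 stood above every control library and knockout library 1 below every one (0.41, SE 0.20, adjusted p = 0.369). Pkm, the pyruvate kinase that makes ATP in the last step, showed the same arrangement, at 2038, 2047, 2069, 2324 and 2165 CPM in control and 1687, 3522, 2492, 3183 and 2475 CPM in knockout libraries (0.33, SE 0.17, adjusted p = 0.386). Hk3, a hexokinase of myeloid cells, ran from 97.8 to 143 CPM in control and stood at 115, 204, 128, 195 and 139 CPM in knockout libraries, with knockout libraries 2 and 4 above the controls (0.32, SE 0.18, adjusted p = 0.415).

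The spread between knockout libraries covered the whole chain. Enzyme levels in knockout library 2 were from 1.31 to 3 times those in knockout library 1, and all 16 were higher. Pgk1, which makes the first ATP of the pathway, stood between 281 and 350 CPM in control libraries and at 192, 572, 346, 374 and 369 CPM in knockout libraries. Tpi1, the isomerase that follows aldolase, ran from 609 to 732 CPM in control and from 375 to 1126 CPM in knockout libraries, a ratio of 3 between knockout libraries 2 and 1. Ldha ran from 799 to 1059 CPM in control and from 600.2 to 1555 CPM in knockout libraries. Gapdh, often used as a reference gene, ran from 1328 to 1637 CPM in control and from 1053 to 2194 CPM in knockout libraries. The median SD of log2 CPM over the 16 enzymes was 0.104 in control and 0.427 in knockout libraries, beside 0.239 and 0.303 over all genes tested. The phosphofructokinases Pfkl and Pfkp, which commit sugar to glycolysis, had log2 fold changes of -0.06 and -0.13, the hexokinase Hk2 of -0.09, and their highest level was also in knockout library 2. Pfkm was the lone enzyme with its highest level elsewhere, in knockout library 3 at 33.5 CPM, and Aldoc spread as widely in control (8.37 to 19.2 CPM) as in knockout libraries (10.2 to 19.7 CPM).

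Gene families were set side by side per kilobase of exon, with lengths from the GENCODE M21 basic set. Among phosphofructokinases, Pfkl stood at 45.6 ± 3.04 CPM per kb in control and 43.6 ± 14.5 in knockout libraries, Pfkp at 23.7 ± 1.27 and 21.6 ± 8.10, and Pfkm at 6.83 ± 1.77 and 8.13 ± 2.28. Among hexokinases, Hk3 stood at 37.3 ± 5.53 and 46.5 ± 12.2, Hk1 at 22.3 ± 2.52 and 23.3 ± 3.97, and Hk2 at 19.0 ± 1.30 and 17.9 ± 6.18 CPM per kb, so the ranges of Hk1 and Hk2 overlapped in both genotypes. Aldoa stood at 593 ± 30.1 and Aldoc at 4.26 ± 1.5 CPM per kb in control libraries. Within each family the order of the group means was the same in both genotypes.

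The regulators set the pace of glycolysis and the fate of pyruvate. Pdk1 encodes a kinase that inhibits pyruvate dehydrogenase. It stood at 64.2, 69.95, 55.8, 72.1 and 53.1 CPM in control and at 63.4, 94.6, 65.0, 90.0 and 89.2 CPM in knockout libraries. Knockout libraries 2, 4 and 5 stood above all controls and knockout libraries 1 and 3 within them (0.35, SE 0.14, unadjusted p = 0.0311, adjusted p = 0.271 by edgeR). Pfkfb3 and Pfkfb4 make fructose 2,6-bisphosphate, the activator of phosphofructokinase. Pfkfb3 ran from 160 to 207 CPM in control and from 129 to 224 CPM in knockout libraries, and its ratio of group means was near 1 (-0.10, SE 0.14, adjusted p = 0.781). Pfkfb4 stood at 92.5, 89.9, 111, 113 and 99.3 CPM in control and at 68.3, 94.4, 96.3, 144 and 129 CPM in knockout libraries, with knockout libraries 4 and 5 highest (0.07, SE 0.18, adjusted p = 0.873).

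Hif targets outside glycolysis differed from each other in direction. Adm, the gene of the vasodilator peptide adrenomedullin (ENSMUSG00000030790), stood at 9.21, 5.53, 5.09, 5.17 and 1.80 CPM in control and at 2.97, 35.6, 6.59, 16.3 and 17.8 CPM in knockout libraries. Knockout libraries 2, 4 and 5 stood above every control and knockout libraries 1 and 3 within the control range (log2 fold change 1.56, SE 0.60, unadjusted p = 0.0247, adjusted p = 0.247 by edgeR). Egln3, a prolyl hydroxylase that acts on Hif alpha and is itself a Hif target (ENSMUSG00000035105), stood at 30.8, 33.7, 15.9, 23.5 and 32.0 CPM in control and at 6.76, 29.6, 20.3, 13.8 and 14.7 CPM in knockout libraries. Knockout libraries 1, 4 and 5 stood below every control, and knockout libraries 2 and 3 among them (-0.67, SE 0.34, adjusted p = 0.375). Its relative Egln1, the main oxygen sensor of the family, ran from 70.0 to 82.9 CPM in control and stood at 62.3, 111, 79.7, 93.4 and 93.0 CPM in knockout libraries (0.20, SE 0.14, adjusted p = 0.502). Adm and Egln3 therefore held opposite places in knockout libraries 4 and 5 while both were far higher in knockout library 2 than in knockout library 1, by 12 and 4.38 times.

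Bnip3, which directs mitochondria to autophagy, stood at 97.9, 101, 75.3, 88.4 and 62.5 CPM in control and at 47.0, 194, 99.0, 108 and 129 CPM in knockout libraries (0.44, SE 0.30, adjusted p = 0.504). The close relative Bnip3l ran only from 76.4 to 92.0 CPM in control and from 72.5 to 87.2 CPM in knockout libraries, the narrowest range of the 34 members in the knockout group, at 1.20 times from lowest to highest. Ankrd37, a small ankyrin repeat gene and Hif target, ran from 6.85 to 12.5 CPM in control and from 2.83 to 20.6 CPM in knockout libraries. The stress gene Ndrg1 ran from 64.7 to 152 and from 105.5 to 220 CPM. P4ha1, a collagen prolyl hydroxylase subunit, ran from 118 to 195 and from 119 to 218 CPM. The histone demethylase gene Kdm3a ran from 41.8 to 51.0 and from 37.0 to 61.2 CPM. All 9 targets were higher in knockout library 2 than in knockout library 1, by ratios from 1.1 for Bnip3l to 12 for Adm.

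**Figure D4:**
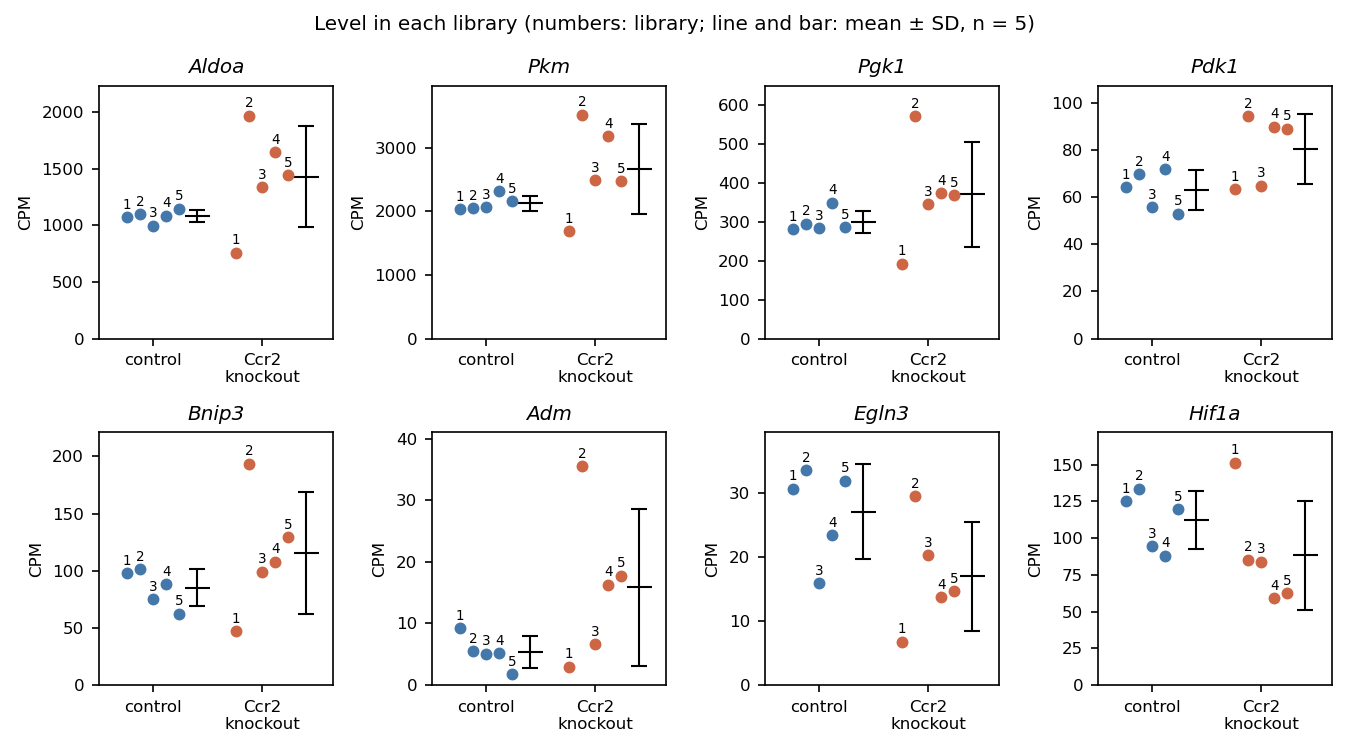
CPM of 8 members in each library (points numbered by library, control in blue and knockout in orange), with the mean ± SD of 5 libraries beside them; each y axis starts at 0. Knockout library 1 is lowest in Aldoa, Pkm, Pgk1, Bnip3 and Egln3 and highest in Hif1a, and knockout library 2 is highest in Aldoa, Pkm, Pgk1, Pdk1, Bnip3 and Adm.

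Between knockout libraries 1 and 2 the RNA of the Hif alpha subunits ran opposite to that of their targets. Hif1a stood at 125, 134, 94.6, 88.2 and 119.7 CPM in control and at 151, 85.3, 84.0, 58.9 and 62.5 CPM in knockout libraries (-0.34, SE 0.24, adjusted p = 0.526). Knockout library 1, where the means of enzymes and targets were lowest, held the highest Hif1a level. Knockout library 2, where these means were highest, held 0.564 times that level. Other libraries did not all go this way. Among controls, Hif1a and Egln3 were both lowest in libraries 3 and 4. Both also stood below every control in knockout libraries 4 and 5, where Adm stood above every control. The mean of the targets, like Hif1a, was lower in control libraries 3 and 4 than in 1 and 2. Unlike Hif1a, that mean was lowest among controls in library 5. Epas1, which encodes Hif2 alpha, stood at 11.4, 8.15, 2.49, 2.57 and 7.82 CPM in control and at 18.4, 7.56, 10.7, 7.29 and 5.85 CPM in knockout libraries (0.62, SE 0.46, adjusted p = 0.548). It too was highest in knockout library 1, and the closely alike control libraries 3 and 4 were lowest. Per kilobase of exon, Hif1a stood at 20.6 ± 3.64 and Epas1 at 1.18 ± 0.703 CPM per kb in control libraries, and at 16.2 ± 6.82 and 1.81 ± 0.916 in knockout libraries. Mif, a cytokine that Hif can induce, followed the enzymes, with 113 to 150 CPM in control and 74.7, 251, 140, 187 and 157 CPM in knockout libraries (0.25, SE 0.25, adjusted p = 0.659).

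The count of members with a difference depended on knockout libraries 1 and 2. With all libraries, 2 members were higher in the knockout at an unadjusted p under 0.05 by edgeR. With knockout library 1 left out, 16 of 34 members were higher, among them 10 of 16 enzymes, against 9.28% of all genes. In that fit 1 member was lower, against 8.79%. The median log2 fold change of the members was then 0.33 beside -0.0017 over all genes. Aldoa passed the adjusted threshold in that fit (log2 fold change 0.57, edgeR adjusted p = 0.0496), the lone member to do so. With knockout libraries 1 and 2 both left out, 13 members were higher, against 10.8% of all genes, 4 were lower, against 12.2%, and Aldoa passed (0.45, adjusted p = 0.0462). With knockout library 2 left out, 0 members were higher, against 8.97% of all genes, and 3 lower, against 8.61%, at an unadjusted p under 0.05, and the member median was 0.10. The libraries were left out because of these members' values, so these counts are a description.

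Other measures also differed between knockout libraries 1 and 2, and their part in the result was not tested. Reads that met no gene on the strand counted made up 5.68% in knockout library 1, the highest of the 10, and 3.81% in knockout library 2, and ran from 4.05% to 5.43% in control libraries. Fn1 made up 83.8% of the summed inflammatory monocyte markers (9 of 9 tested), which ran from 2230 to 6090 CPM in control and from 1660 to 4070 CPM in knockout libraries. The other 8 summed to between 587 and 1640 CPM in control libraries and to between 25.9 and 130 CPM in the knockout, with no overlap, and stood at 49.5 and 53.6 CPM in knockout libraries 1 and 2. By edgeR 6 of the 9, Ccr2 itself among them, passed the threshold as lower in knockout libraries, against 0.543% of all genes. Dendritic cell markers (10 of 10 tested) stood at 10.8 and 31.3 CPM in knockout libraries 1 and 2, and at 6.08 and 10.4 CPM without Batf3, their most abundant gene. Their sum ran from 24.6 to 60.4 CPM in control and from 10.8 to 31.3 CPM in knockout libraries. Neutrophil markers (9 of 12 tested) stood at 223 and 115 CPM in knockout libraries 1 and 2, and at 114 and 6.06 CPM without Csf3r, their most abundant gene. Fibroblast markers (10 of 10) stood at 590 and 280 CPM, also lower in knockout library 2. Neutrophil and fibroblast sums ran from 163 to 651 CPM and from 674 to 2230 CPM in control, and from 115 to 223 CPM and from 280 to 3470 CPM in knockout libraries. Genes listed as melanoma markers (5 of 9 tested) stood at 58.5 and 70.1 CPM in knockout libraries 1 and 2. Their sum ran from 37.2 to 80.8 CPM in control and from 38.5 to 70.1 CPM in knockout libraries. Sox10 made up 45% of it, and the other 8 stood at 29.5 and 36 CPM in knockout libraries 1 and 2. Of the untested Dct, Tyr, Tyrp1 and Mlana, the highest level was 0.743 CPM, for Dct in control library 1, so the sum is no measure of tumour cells. T and NK cell markers (10 of 12 tested) summed to 81.1 to 200 CPM in control and 88.8 to 239 CPM in knockout libraries, B cell markers (3 of 6) to 149 to 379 and 67.7 to 540, endothelial markers (4 of 6) to 31.7 to 84.1 and 18.8 to 31.3, and erythroid markers (1 of 6) to 0.314 to 2.22 and 0.104 to 2.15. Cd4 made up 67.3% of the T and NK sum, and the other 11 genes stood at 4.26 CPM in knockout library 1, 105 CPM in knockout library 2 and 2.2 and 2.32 CPM in knockout libraries 4 and 5, beside 29.9 to 125 CPM in control libraries. Of the markers in these lists, 0 were at 0 in all libraries. Dpp4 of the dendritic list passed as lower in knockout libraries (log2 fold change -2.31, edgeR adjusted p = 0.0297). Cd4 (1.13, edgeR adjusted p = 0.0223) and Trpm1 of the melanoma list (1.96, edgeR adjusted p = 0.027) passed as higher. In such bulk samples fewer cells of a type and less RNA per cell cannot be told apart.

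Immediate early genes (12 of 12 tested), which cell handling can raise, summed to 7520 to 16000 CPM in control libraries and to 6640, 8210, 7750, 2110 and 1990 CPM in knockout libraries 1 to 5, so knockout libraries 4 and 5 stood apart from the rest. Their lower Egln3 and Hif1a levels and higher Pfkfb4 and Adm levels, given above, were seen in the same libraries, and the part of the immediate early genes in them was not tested. Mitochondrially encoded genes (7 of 13 tested, 4 at 0 in all libraries) summed to 5430 to 7830 CPM in control and 3990 to 6860 CPM in knockout libraries.

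Genes around the members were taken from 5 lists of the same pathways, 84 genes in all, of which 72 were tested and 0 passed the threshold by edgeR (12 at an unadjusted p under 0.05, 5 higher and 7 lower in knockout libraries, against 15.3% of all genes). DESeq2 called 3 of them, Ddit4, Bhlhe40 and Tigar, against 5.7% of all genes. Among other Hif targets (31 of 32 tested), the growth inhibitor Ddit4 stood at 255, 263, 77.7, 69.9 and 202 CPM in control and at 64.2, 52.3, 63.6, 29.1 and 27.5 CPM in knockout libraries, with no overlap (log2 fold change -1.87, SE 0.43, edgeR adjusted p = 0.0648). The repressor gene Bhlhe40 ran from 102 to 252 CPM in control and from 37.0 to 112 CPM in knockout libraries (-1.15, SE 0.34, edgeR adjusted p = 0.135). The lowest values of Ddit4 and Bhlhe40 were in knockout libraries 4 and 5, where immediate early genes were lowest.

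Among other glycolysis genes (13 of 23 tested), Tigar, a phosphatase that lowers fructose 2,6-bisphosphate, stood at 7.70, 8.70, 6.77, 7.84 and 7.58 CPM in control and at 11.4, 10.8, 10.1, 12.1 and 10.5 CPM in knockout libraries. The groups did not overlap, and knockout libraries 1 and 2 were nearly equal (0.51, SE 0.11, edgeR adjusted p = 0.0600). Ldhb, the lactate dehydrogenase subunit that favours lactate use, ran from 32.2 to 42 CPM in control and from 18.3 to 32.5 CPM in knockout libraries (-0.51, SE 0.17, adjusted p = 0.174). Of the Hif partners and oxygen sensors (10 of 10 tested), the asparaginyl hydroxylase gene Hif1an had a log2 fold change of 0.29 and the ubiquitin ligase gene Vhl of 0.22 (edgeR adjusted p = 0.393 and 0.579). Of the genes for pyruvate entry into mitochondria (11 of 12 tested), the pyruvate carrier gene Mpc2 had -0.23 and Pdhx 0.10 (adjusted p = 0.266 and 0.676). Of the pentose phosphate genes (7 of 7 tested), Rpia had -0.25 and Pgd 0.18 (adjusted p = 0.283 and 0.517). The difference between knockout libraries 2 and 1 seen in the enzymes was smaller in the means of the pathway lists. The mean centred log2 levels in knockout libraries 1 and 2 were -0.36 and 0.34 for other Hif targets and -0.19 and 0.081 for other glycolysis genes. They were 0.0054 and 0.24 for Hif partners, 0.078 and 0.022 for pyruvate entry, and -0.27 and 0.094 for the pentose phosphate genes. Single genes could differ from their list: of the other glycolysis genes, Pgm1 stood at 40.4 and 111 CPM and Pgm2 at 47.0 and 34.5 CPM.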

How the data were processed

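RNA from F4/80+ cells sorted from tumours was enriched for poly A and made into directional libraries, per the labels' protocols. The deposited values are read counts per gene. The submitters' processing notes name STAR and the build GRCm39, and no source used here gives the STAR version or the annotation. The reverse strand column was used, which held 96.2% to 96.5% of strand-assigned counts. Rows for unmapped, multimapping (0 in all libraries), ambiguous and unassigned reads, 12.6% to 15.4% of reads, were left out. How reads shared with near-identical copies of a gene were treated is not stated, which leaves genes with processed copies uncertain. Symbols matched 52083 of 55359 identifiers, Ero1a not among them, and the first in row order of the 2 Aldoa identifiers was used. A combined table, with 10 columns not named, was not used.

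The test was edgeR 4.0.16 under R 4.3.3 (filterByExpr with minimum count 10, TMM, quasi-likelihood F-test, Benjamini-Hochberg adjustment over all genes, threshold 0.05), and the code was tested on simulated data. CPM uses TMM-scaled library sizes, and log2 CPM a prior count of 2. The standard error is the size of the log2 fold change divided by the square root of F. Members and lists were chosen with earlier results of these data known. Named were members past the threshold, the 3 with the smallest p in each role, and up to 2 in each pathway list. Bnip3, Pgk1, Tpi1, Ldha, Gapdh and the other members described by range were added after their values were seen. Alternatives included DESeq2 1.42.0. Figures were drawn with matplotlib 3.10.9.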

Additional observations from a re-analysis of the deposited data

Results flagged for a closer look

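Of 68 groups of 5 libraries, 1 for each member and genotype, 4 held a library whose gap to its neighbour took more than 0.71 of the range, and chance alone gives about 1 in 20. Slc2a3 in knockout library 5 stood at 26.6 CPM, with the next library at 16.6 and the lowest at 14.8. Pgk1 in control library 4 stood at 350 CPM, with the next at 296 and the lowest at 281. Ndrg1 in knockout library 2 stood at 220 CPM, with the next at 125. Hif1a in knockout library 1 stood at 151 CPM, with the next at 85.3. The last of these fell in the library with the lowest level of most glycolytic enzymes, and the third in the library with the highest.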

How the results depend on the processing

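Over 19 alternatives, 28 of 34 members kept the sign of their log2 fold change in every one, and 2 of 646 pairs of member and alternative crossed the threshold, both Aldoa. Counts of members called ran from 0 to 1 with 1 library left out, and stood at 1 without both knockout libraries 1 and 2 and at 0 in the other alternatives. The count over all genes was 203, and 820 with DESeq2, 29 with the closely alike control pairs summed, 8 with knockout libraries 4 and 5 summed too, 366 without both knockout libraries 1 and 2, and from 62 (without control library 2) to 267 (without knockout library 3) with 1 library left out. It was 77, 101 and 77 without control libraries 1, 3 and 4, and 107 and 92 without knockout libraries 4 and 5. Other pathway genes gave 3 calls with DESeq2 and from 0 to 1 with 1 library left out, the 1 being Vegfa without knockout library 2 (log2 fold change -1.41, adjusted p = 0.034). With the title number as a replicate block the count over all genes was 55 and that of members 0. Same-numbered libraries correlated at 0.344, 0.08, -0.529, 0.18 and -0.224 in their deviations from group means, so the numbers were not taken as pairs, and not every library matched its own number best. With 1 library left out, the log2 fold change moved by over 1.5 times for 29 of 34 members, for 23 of them without knockout library 2 and for 20 without knockout library 1. Hif1a ran from -0.63 to -0.21, Epas1 from 0.28 to 0.92, Bnip3 from 0.18 to 0.64 and Tpi1 from 0.020 to 0.36, and Egln3, which moved by less than that, from -0.96 to -0.47. Hk3, Aldoa, Pkm and Pdk1 also moved by less. Other values turned sign. Kdm3a (-0.0098) gave 0.0033 without a filter, 0.019 and 0.041 with pairs summed and 0.014 with no composition factor, and P4ha1 (-0.049) gave 0.017 and 0.039 with pairs summed. Pfkfb4 (0.073) gave -0.026 with the 3 pairs summed, and Slc16a3 (0.036) gave -0.053 with the replicate block. With 1 library left out Kdm3a ran from -0.12 to 0.075, P4ha1 from -0.19 to 0.033, Pfkfb4 from -0.051 to 0.20, Slc16a3 from -0.19 to 0.22, Pfkl from -0.24 to 0.089 and Pfkp from -0.36 to 0.011. The enzyme minus Hif target difference ran from -0.091 to 0.058 with 1 library left out and was 0.062 as a median over members. The cause of these changes was not tested. Ccr2 passed in every alternative.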

Other observations

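Vegfa and Hilpda, Hif targets of the wider list, are given here after their values were seen. Vegfa, the vascular growth factor gene, stood at 74.8, 118, 100.4, 105 and 160 CPM in control libraries 1 to 5 and at 29.0, 163, 61.6, 32.8 and 44.1 CPM in knockout libraries 1 to 5 (log2 fold change -0.75, edgeR adjusted p = 0.440). Knockout library 2 thus held the highest Vegfa level of all libraries while the other 4 knockout libraries stood below every control. Hilpda, which slows the breakdown of lipid droplets, ran from 47.2 to 161 CPM in control and stood at 34, 74.3, 72.2, 27.4 and 23.9 CPM in knockout libraries (-0.94, adjusted p = 0.310). Like Egln3, both were lower in knockout libraries 4 and 5 than in every control, whereas Adm and the enzyme Aldoa were higher there than in every control.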
